A study of Mus musculus with 12 samples.

Results

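The CCAAT/enhancer binding protein (C/EBP) family was followed in polyA RNA-seq of mouse heart through 5 genes, Cebpa, Cebpb, Cebpd, Cebpg and Cebpz, among 16246 genes listed in any of the 4 deposited tables. The rows were taken by gene symbol, and all 5 genes stood in each table and passed the filter on low values in each comparison. The family was picked on the values of Cebpb, which differed between transverse aortic constriction (TAC) and sham hearts on 1 of the 2 diets. The levels of Cebpb and the TAC contrasts of every member are therefore given as a description, with no test. Tests are given for the other members between the diets, on libraries that the choice also drew on. Male C57Bl/6J mice aged 12 weeks gave the hearts. Sham and TAC hearts were taken on both diets, 3 samples for each pairing of surgery and diet, 12 in all. The control diet held all essential amino acids, branched-chain amino acids (BCAA) included, and the BCAA-free diet held no leucine, isoleucine or valine. Diets began 4 days before sham surgery or TAC, which narrows the aorta and raises the pressure load on the left ventricle, and hearts were taken 2 weeks after surgery. Neither the time of day at collection nor the number of hearts per sample (1 or a pool) is in the labels, so the spread that the p-values rest on may be partly technical.

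C/EBP proteins are basic leucine zipper (bZIP) transcription factors that bind DNA as dimers, with each other or with partners such as the ATF factors. C/EBP alpha drives terminal differentiation of liver, fat and myeloid cells, C/EBP beta and C/EBP delta are induced by cytokines and hormones, and C/EBP gamma lacks the usual activation domains and acts as a partner of other bZIP proteins. C/EBP beta is made from 1 intronless gene as long activating and short inhibitory proteins, a choice made in translation that RNA counts do not show. In the heart, exercise lowers C/EBP beta and raises its counterpart CITED4, a step linked to physiological growth. In amino acid shortage, ATF4 binds composite C/EBP-ATF elements together with C/EBP partners. Cebpz shares only the name: it encodes a CCAAT-binding protein of the nucleolus with no bZIP domain. Cebpe was not analysed here.

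The starts of Cebpb and Cebpa are shown because the intronless Cebpb carried the difference that led to the family and Cebpa is also intronless. Cebpd is intronless too, but no promoter window was available for it. Each run spans 250 bases before to 50 bases after the RefSeq start on GRCm38.p6, plus strand, 5′ to 3′, at chr2:167688665-167688964 for Cebpb and chr7:35119043-35119342 for Cebpa. Capitals mark TGACG, the core of the cAMP response element, and TATAAA, the TATA box, each on either strand.
Cebpb: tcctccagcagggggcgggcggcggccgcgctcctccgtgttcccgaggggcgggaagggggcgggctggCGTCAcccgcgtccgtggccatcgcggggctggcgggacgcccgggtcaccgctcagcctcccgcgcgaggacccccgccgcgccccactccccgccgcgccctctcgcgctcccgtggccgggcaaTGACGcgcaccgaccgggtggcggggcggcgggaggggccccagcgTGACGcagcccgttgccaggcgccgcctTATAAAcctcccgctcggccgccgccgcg
Cebpa: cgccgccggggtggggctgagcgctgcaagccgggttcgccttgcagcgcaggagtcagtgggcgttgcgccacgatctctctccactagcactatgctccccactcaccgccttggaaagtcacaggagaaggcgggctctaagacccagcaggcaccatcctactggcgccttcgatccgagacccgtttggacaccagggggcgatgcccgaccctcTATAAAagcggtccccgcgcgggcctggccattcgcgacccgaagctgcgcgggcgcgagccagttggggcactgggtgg
The Cebpb window held TGACG or its reverse complement 3 times, with first bases 180, 53 and 7 bases before the annotated start, and no such match lay in the windows of Cebpa or Cebpg. At least 1 match occurred in 20.8% of 32851 RefSeq promoters of the same length. TATAAA lay 30 bases before the start in Cebpa and began at base 22 of the annotated transcript in Cebpb, and 13.6% of promoters held it. CCAAT was absent from the Cebpa and Cebpb windows and occurred 2 times, on the reverse strand, in that of Cebpg (37.4% of promoters). TTGCGCAA, the C/EBP palindrome (0.183% of promoters), TGATGCAA, a C/EBP-ATF element (0.895%), TGACGTCA, the full cAMP response element (1.79%), and TTCCNGGAA, a STAT site (1.15%), had no match in any of the 3 windows on either strand. TGACG and TATAAA were chosen after the windows had been seen, and matches are a description of letters only. The Cebpb window had a GC content of 80.7% and that of Cebpa 67.3%, against a median of 52.7% over all promoters.

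The members differ in structure, which bears on their counts. On GRCm38, Cebpb (ENSMUSG00000056501) lies on chromosome 2, 167688915 to 167690418, plus strand, and consists of 1 exon. Cebpa (ENSMUSG00000034957) lies on chromosome 7, 35119293 to 35121928, plus strand, and Cebpd (ENSMUSG00000071637) on chromosome 16, 15887286 to 15891031, plus strand. Both also have 1 exon. Cebpg (ENSMUSG00000056216) lies near Cebpa on chromosome 7, 35046422 to 35056573, minus strand, with 2 exons, and Cebpz (ENSMUSG00000024081) on chromosome 17, 78919006 to 78937066, minus strand, with 16 exons. The GC content of the longest transcript was 67.2% for Cebpb, 62.6% for Cebpa, 51.6% for Cebpd, 43.3% for Cebpg and 43.4% for Cebpz. Cebpb exceeded 99.7% of the genes tested in GC content and Cebpa 98.5%. Exons of genes on the opposite strand overlap 20.7% of the exon bases of Cebpb (Tmem189), 15.0% of those of Cebpd (Spidr) and 3.67% of those of Cebpz (Cebpzos). Whether reads were counted by strand is not given in the sources used here, so reads from these partners cannot be told apart from the members' own.

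Per length, Cebpb and Cebpd were the family's most abundant transcripts. Levels were computed over all 12 libraries as RPKM. That is reads scaled to exon length in kb and to the library's total times its TMM scaling factor. In control diet sham hearts the level was 16.9 ± 5.66 (SD, n = 3) for Cebpb, 11.3 ± 3.34 for Cebpd, 5.22 ± 0.496 for Cebpz, 3.04 ± 0.292 for Cebpa and 3.00 ± 0.278 for Cebpg. The values of Cebpb and Cebpd overlapped over that group, although Cebpb was the higher of the 2 in each of its 3 libraries, and Cebpa and Cebpg did not differ beyond their spread. In control diet TAC hearts Cebpd had 14.2 ± 3.71 and Cebpb 10.9 ± 0.503, and the 2 genes overlapped, with Cebpb at 11.5 and Cebpd at 11.1 in replicate 3. In BCAA-free sham hearts Cebpb was at 16.3 ± 1.26 and Cebpd at 9.96 ± 1.17, and the 2 genes did not overlap. In BCAA-free TAC hearts Cebpb reached 50.6 ± 7.52, with Cebpd at 10.7 ± 1.53, Cebpz at 5.18 ± 0.226, Cebpa at 4.00 ± 0.606 and Cebpg at 3.40 ± 0.514. The summed level of the 4 bZIP members was 34.2 ± 8.65 in control diet sham, 32.3 ± 3.08 in control diet TAC, 33.0 ± 2.11 in BCAA-free sham and 68.7 ± 8.44 in BCAA-free TAC hearts. Cebpb made up 48.7% ± 4.49, 34.1% ± 4.18, 49.5% ± 0.730 and 73.5% ± 2.42 of that sum in the same order. The share of Cebpa in it was 5.83% ± 0.697 and that of Cebpd 15.6% ± 1.78 in BCAA-free TAC hearts.

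**Figure D1:**
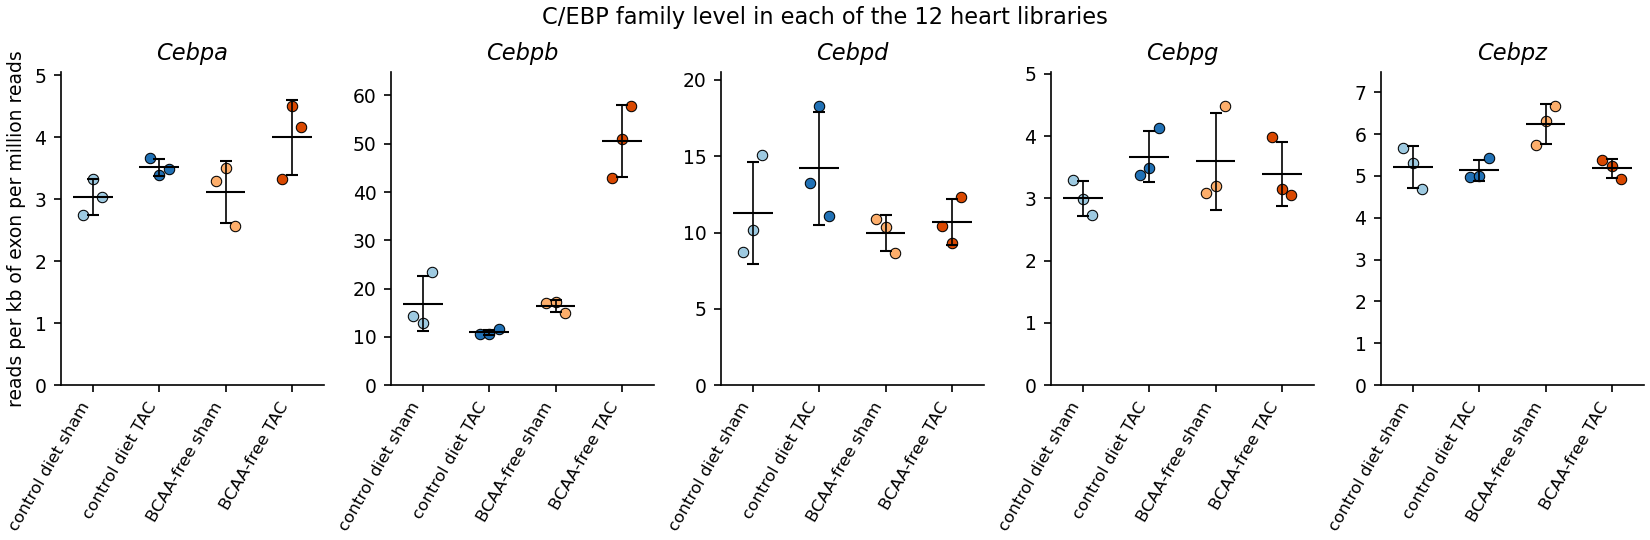
Level of each member in every library, in RPKM (vertical axis, from 0, own scale per gene), with points for libraries, horizontal lines for group means and bars for SD (n = 3). Cebpb averaged 50.6 in BCAA-free TAC hearts and 10.9 to 16.9 in the other groups, while the groups of the other members lay close together.

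**Figure D2:**
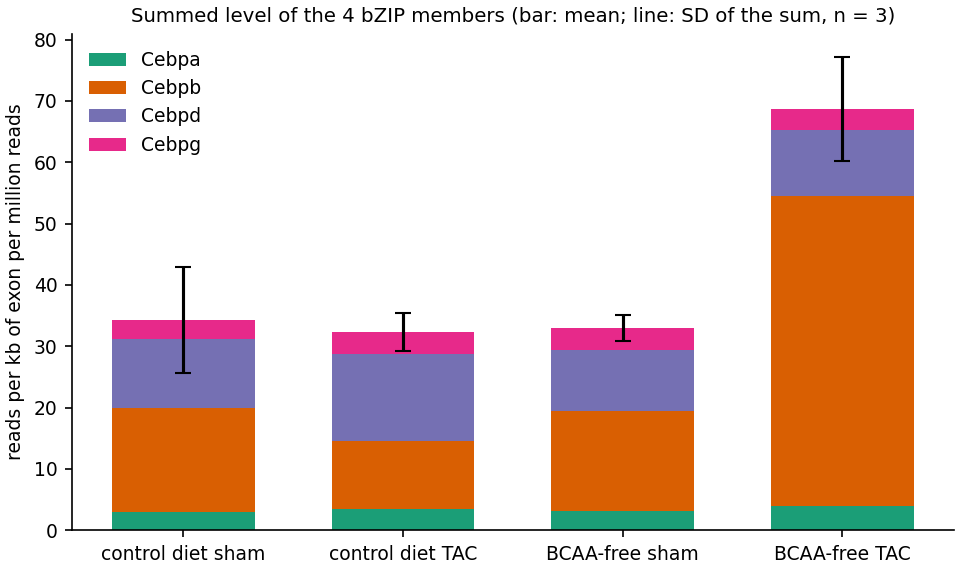
Summed level of Cebpa, Cebpb, Cebpd and Cebpg by group, in RPKM, as stacked bars of group means with the SD of the sum (n = 3). The sum was 68.7 in BCAA-free TAC hearts and 32.3 to 34.2 in the other groups, and Cebpb made up the excess.

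Cebpb was higher after TAC on the BCAA-free diet, the rise it was chosen for, and lower in all TAC libraries on the control diet. Values are normalized read counts, reads divided by a size factor of the library within its table, so they are compared only within a table. On the BCAA-free diet Cebpb had 899.9, 909 and 788 in sham replicates 1, 2 and 3 and 2268, 2699 and 3046 in TAC replicates 1, 2 and 3. The lowest TAC library was far above the highest sham library. The means were 866 ± 67.0 and 2671 ± 390 (SD, n = 3), a ratio of 3.09 and a log2 fold change of 1.62 ± 0.11 (SE), computed on log2 of the value plus 1. By size it was the 14th rise among the 15670 genes tested. On the control diet Cebpb had 642, 572 and 1079 in sham and 475, 479.6 and 519 in TAC replicates 1, 2 and 3. Every TAC library lay below every sham library, and sham replicate 3 stood apart from the other sham libraries. The means were 764 ± 274 and 491 ± 24.0, a ratio of 0.643 and a log2 fold change of -0.58 ± 0.21. Without control diet sham replicate 3 that log2 fold change was -0.30. In the authors' deposited table the log2 fold change of Cebpb was 1.63 for TAC with the BCAA-free diet and -0.64 with the control diet.

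Between diets, Cebpb overlapped in sham hearts and did not in TAC hearts. In the table of the diet after sham it had 621, 554 and 1033 on the control diet and 739, 746 and 648 on the BCAA-free diet (replicates 1, 2 and 3), a log2 fold change of 0.00 ± 0.20. Without control diet sham replicate 3 it was 0.27. In the table of the diet after TAC it had 581.5, 583 and 632 on the control diet and 2350.4, 2802 and 3158 on the BCAA-free diet. The means were 599 ± 28.7 and 2770.1 ± 405, a ratio of 4.63 and a log2 fold change of 2.20 ± 0.11, the 23rd rise by size of 15872 genes. The TAC effect on the BCAA-free diet minus that on the control diet was 2.20 ± 0.26 on the log2 scale, the 9th largest of 15195 genes, and 1.92 without control diet sham replicate 3. Counting error is small beside these differences: members had 125 to 3283 reads in a library, which gives a counting error of 1.75% to 8.94%.

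A ratio between 2 members within a library does not depend on how libraries were scaled. Cebpb had 2.98, 2.21 and 4.38 reads per read of Cebpa in control diet sham replicates 1, 2 and 3, and 1.66, 1.79 and 1.89 in control diet TAC. The ratio was 2.94, 2.79 and 3.32 in BCAA-free sham and 7.34, 6.45 and 7.94 in BCAA-free TAC hearts. Against Cebpd the mean ratio was 0.598 ± 0.0788 in sham and 0.325 ± 0.0915 in TAC hearts of the control diet, and 0.661 ± 0.0327 and 1.91 ± 0.275 in those of the BCAA-free diet. Both ratios were highest in the BCAA-free TAC libraries, with no overlap with any other group.

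GC content moved with the libraries that carry the Cebpb difference. Across 11305 genes, the deviation of log2 level from the mean of the 12 libraries had a Spearman correlation with GC content of 0.27 to 0.50 in the BCAA-free TAC libraries and of -0.28 to 0.06 in the other 9. For TAC on the BCAA-free diet the 781 genes with a GC content of at least 60% had a median log2 fold change of 0.24, against 0.00 over all genes, and 5 of them exceeded Cebpb. Among the 377 protein-coding genes whose longest coding transcript has 1 exon, none exceeded Cebpb in that comparison and 1 of 387 did so for the diet after TAC. After the dependence of each library on GC content and on transcript length was taken out (with the trends removed), the log2 fold change of Cebpb was 1.23 ± 0.08 after TAC on the BCAA-free diet, 1.84 ± 0.09 for the diet after TAC and 1.70 ± 0.23 for the difference between diets in the TAC effect. Those are folds of 2.34, 3.58 and 3.24, with Cebpb at rank 34, 37 and 12 from the largest rise. For TAC on the control diet it was -0.46 ± 0.19.

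**Figure D3:**
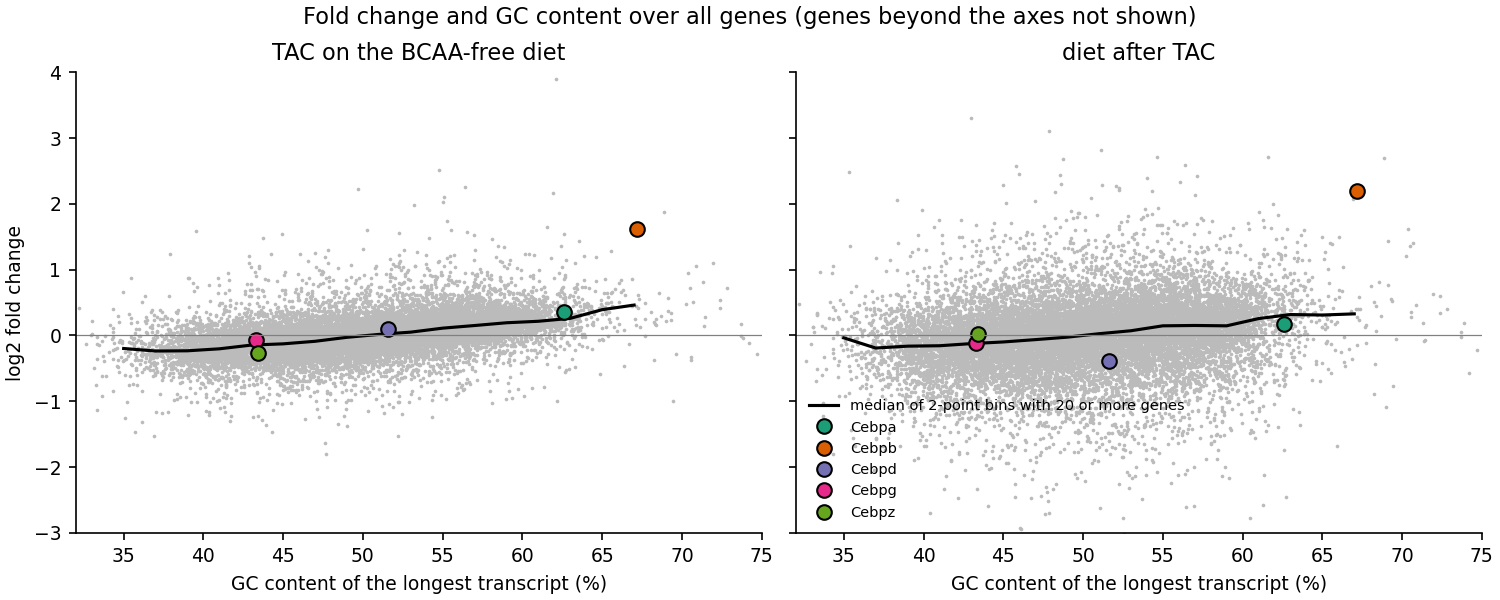
Log2 fold change (vertical axis) against GC content of the longest transcript in percent (horizontal axis) for all genes (grey), with the median of bins of GC content (black line) and the 5 members (coloured), for TAC on the BCAA-free diet (left panel) and the diet after TAC (right panel). The medians climb with GC content in both panels, and Cebpb at 1.62 and 2.20 lies above the medians at its GC content.

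Genes beside Cebpb were compared with it. Tmem189 has exon bases that overlap Cebpb on the opposite strand. It had 859.5, 804 and 742 in BCAA-free sham and 866, 960.2 and 910.3 in BCAA-free TAC hearts. The log2 fold change was 0.19 ± 0.09 (adjusted p = 0.216 by limma). Tmem189 was called in none of the 4 pairwise comparisons, with log2 fold changes of -0.14 to 0.19. The nearest downstream gene of the tables, the long noncoding A530013C23Rik, begins 759 bases beyond Cebpb on the same strand. It had 67.3, 55.0 and 57.9 in control diet TAC and 110.4, 155 and 146 in BCAA-free TAC hearts and rose by 1.17 ± 0.19 on the log2 scale (adjusted p = 0.003 by limma). Its BCAA-free sham libraries had 116, 130.2 and 47.3 and its BCAA-free TAC libraries 106, 149.6 and 141, which overlap. The sham library with the low value, replicate 3, also had the lowest Dbp (567 against 2671 and 3522) and the lowest Cebpb (788 against 899.9 and 909) of its group. That library was also the lowest of its group in Cebpa and Cebpd and the highest in Cebpg and Cebpz. The nearest upstream gene, Ube2v1, ends 56820 bases before Cebpb and had -0.21 ± 0.11 for the diet after TAC, and -0.29 ± 0.12 when TAC was compared with sham on the BCAA-free diet, neither called.

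Cebpa, the differentiation factor, passed in neither diet comparison. On the BCAA-free diet it had 306, 325 and 238 in sham and 309, 418 and 384 in TAC replicates 1, 2 and 3, a log2 fold change of 0.35 ± 0.15. With the GC and length trends removed this was 0.06 ± 0.14. On the control diet it had 216, 259 and 246 in sham and 287, 267 and 275 in TAC hearts, which did not overlap, with a log2 fold change of 0.20 ± 0.13. Between diets Cebpa had 0.03 ± 0.16 in sham (adjusted p = 0.945 by limma) and 0.18 ± 0.13 in TAC hearts (adjusted p = 0.303 by limma). The second value was -0.018 with the trends removed.

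Cebpd, like Cebpb a gene induced by cytokines and glucocorticoids, varied widely between replicates on the control diet. On the control diet it had 970.4, 1122 and 1735 in sham and 1474, 2046 and 1243 in TAC replicates 1, 2 and 3. These overlap, and sham replicate 3, high in Cebpb, was high in Cebpd as well. The log2 fold change was 0.33 ± 0.24. On the BCAA-free diet sham hearts had 1437, 1367 and 1140.3 and TAC hearts 1377, 1229 and 1618, again overlapping, with a log2 fold change of 0.10 ± 0.11. In TAC hearts Cebpd had 1804, 2487 and 1514 on the control diet and 1427, 1276 and 1677 on the BCAA-free diet, a log2 fold change of -0.38 ± 0.18 that did not pass (adjusted p = 0.137 by limma). Without control diet TAC replicate 3 it was -0.55 and passed. In sham hearts it was -0.15 ± 0.19 (adjusted p = 0.737 by limma), and 0.09 without control diet sham replicate 3.

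Cebpg, the partner without activation domains, had 551, 495 and 472 in sham and 564, 585 and 696 in TAC hearts of the control diet (replicates 1, 2 and 3). The TAC libraries lay above the sham libraries, with a log2 fold change of 0.28 ± 0.12. On the BCAA-free diet it had 613, 633 and 888 in sham and 789, 623 and 601 in TAC hearts, a log2 fold change of -0.07 ± 0.15. The diet difference was 0.24 ± 0.15 in sham (adjusted p = 0.459 by limma) and -0.11 ± 0.13 in TAC hearts (adjusted p = 0.518 by limma). With the trends removed the latter was 0.083.

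Cebpz, the nucleolar protein gene, had 786, 729 and 670.1 in sham and 689.6, 695 and 755 in TAC hearts of the control diet, a log2 fold change of -0.03 ± 0.11. On the BCAA-free diet sham hearts had 942, 1034 and 1095 and TAC hearts 882, 857 and 805. All TAC libraries lay below the sham libraries, with a log2 fold change of -0.27 ± 0.09, and of -0.12 ± 0.08 with the trends removed. Between diets it had 0.26 ± 0.11 in sham hearts, where the groups did not overlap (adjusted p = 0.276 by limma), and 0.02 ± 0.08 in TAC hearts (adjusted p = 0.893 by limma). The difference between diets in the TAC effect was 0.15 ± 0.20 for Cebpa, -0.23 ± 0.30 for Cebpd, -0.35 ± 0.21 for Cebpg and -0.24 ± 0.13 for Cebpz.

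**Figure D4:**
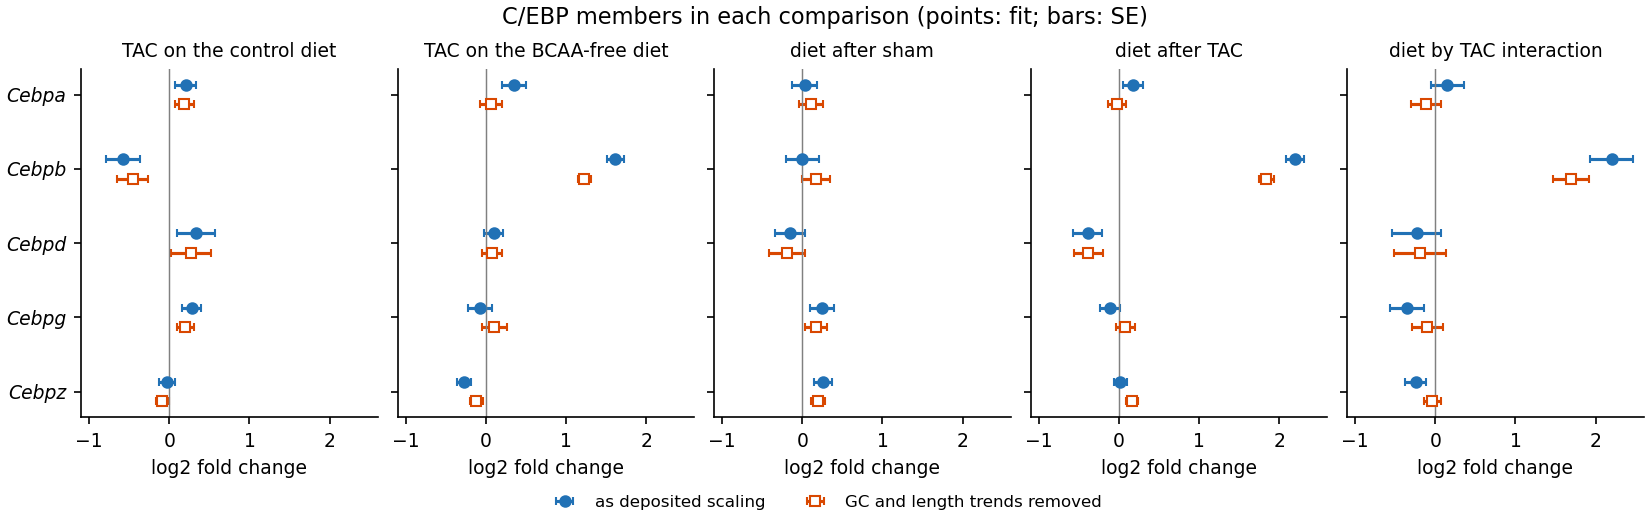
Log2 fold change of each member (rows) in the 5 comparisons (panels), as fitted by limma (filled circles) and with each library's GC and length trends removed (open squares), with SE bars. Cebpb stands at 1.62 after TAC with the BCAA-free diet and at 2.20 for the diet after TAC, and the other members lie between -0.38 and 0.35 in the 4 pairwise comparisons.

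The family's counts are set beside those of all genes. At an adjusted p under 0.05, 3.34% of all genes were called higher and 2.89% lower for TAC on the BCAA-free diet. For TAC on the control diet it was 2.95% higher and 1.09% lower. These contrasts chose the family, so no calls of members are given for them. In TAC hearts none of the 4 members other than Cebpb was called between diets, against 16.5% of genes higher and 17.7% lower. Cebpb is left out of that count, since the libraries of that comparison also entered its choice. In sham hearts, with Cebpb left out for the same reason, none of those 4 was called, against 0.250% higher and 0.375% lower. Of the 4, 1 had an unadjusted p under 0.05. In the difference between diets in the TAC effect, 4.92% of genes were called higher and 3.73% lower. Groups did not overlap for 3 members in TAC on the control diet (35.2% of all genes), 2 in TAC on the BCAA-free diet (29.5%), 1 in the diet after sham (23.0%) and 1, Cebpb, in the diet after TAC (50.8%).

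The genes whose log2 level was most like that of Cebpb over the 12 libraries were named from 10833 genes with a mean of at least 100 reads. They were Cdk2ap1 (Pearson r = 0.97, Spearman rho = 0.91), Suds3 (0.97 and 0.87), Sap30l (0.96 and 0.91), Lemd2 (0.96 and 0.87), Bag1 (0.95 and 0.97) and Ppp2ca (0.95 and 0.87). The r rests on libraries that differ in depth and in GC trend and is a description. Their log2 fold changes for the diet after TAC ran from 0.40 ± 0.08 (Suds3) to 1.05 ± 0.10 (Sap30l), all below that of Cebpb, and their GC contents from 44.6% (Ppp2ca) to 66.3% (Sap30l). Within the family Cebpb had r = 0.52 with Cebpa, -0.17 with Cebpd, -0.21 with Cebpg and -0.23 with Cebpz.

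Over the 8 lists of related genes, limma called 33 of 148 distinct genes higher and 23 lower for the diet after TAC, 37.8% in all against 34.2% of all genes tested. Possible dimer partners were read from a list of 25 bZIP factors outside the family. In TAC hearts 6 of them rose and 5 fell with the diet, with a median log2 fold change of -0.14 against 0.00 over all genes. Ddit3, which encodes the C/EBP-homologous protein CHOP of the stress response, had 320.4, 492.5 and 419 in control diet TAC and 739.6, 523 and 563 in BCAA-free TAC hearts. The groups did not overlap, and Ddit3 rose by 0.57 ± 0.18 (adjusted p = 0.0386 by limma), but by 0.30 with the trends removed, where it did not pass. Atf3, a stress-induced repressor, fell by 1.09 ± 0.26 (adjusted p = 0.015 by limma). Atf4, the main factor of amino acid shortage, had -0.20 ± 0.13 (adjusted p = 0.254 by limma), and Atf5, its relative, -0.14 ± 0.13 (adjusted p = 0.43 by limma).

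The largest bZIP changes were those of clock output genes. Dbp had 855, 989 and 779.5 in control diet TAC and 6131, 5884 and 5074 in BCAA-free TAC hearts (2.70 ± 0.11, adjusted p = 1.22e-05 by limma). Hlf rose by 2.01 ± 0.13 and Tef by 1.20 ± 0.11, while Nfil3, the repressor that competes with them for DNA, fell by 1.34 ± 0.15 (adjusted p = 0.000924 by limma). Of the other called factors, Atf6, a sensor of endoplasmic reticulum stress, fell by 0.56 ± 0.08 and Crem, a cAMP-response factor, by 0.57 ± 0.12. Time of day is not in the labels, and its part in the Cebpb difference was not tested.

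After TAC on the BCAA-free diet 1 of 24 tested bZIP factors rose and 3 fell. Atf3 fell by 1.53 ± 0.14 (adjusted p = 0.000784 by limma), from 579 ± 102 to 199 ± 20.6, and Fos, of the AP-1 factors, by 1.09 ± 0.20 (adjusted p = 0.0159 by limma). Jund, a partner of Fos, rose by 0.44 ± 0.09 (adjusted p = 0.0243 by limma) and Atf2 fell by 0.33 ± 0.08 (adjusted p = 0.0351 by limma), but neither passed with the trends removed. Ddit3 had 0.45 ± 0.19, Nfil3 -0.84 ± 0.50, Atf5 0.26 ± 0.14 and Atf4 0.13 ± 0.09, and none of these passed. On the control diet limma called 0 of 25 for TAC, with 1 at an unadjusted p under 0.05 and 0 by edgeR and by DESeq2. The 2 with the smallest p were Dbp (0.58 ± 0.25) and Crem (0.39 ± 0.18). Atf3 had -1.38 ± 0.77, Nfil3 -0.93 ± 0.48, Ddit3 -0.23 ± 0.23, Atf5 -0.13 ± 0.16 and Atf4 0.05 ± 0.24. In the sham hearts of that comparison Atf3 had 272, 1220.0 and 2490.2, Nfil3 424, 688 and 1913 and Fos 56.6, 871 and 1255 in replicates 1, 2 and 3. Control diet sham replicate 3 was thus highest in all 3, as it was in Cebpb and Cebpd. In sham hearts the diet changed 0 of 24 by limma, with 4 at an unadjusted p under 0.05, 0 by edgeR and 1 by DESeq2. The 2 with the smallest p were Atf5 (-0.54 ± 0.16) and Atf7 (0.39 ± 0.14), and Nfil3 (-1.42 ± 0.78), Atf3 (-0.94 ± 0.88), Atf4 (-0.28 ± 0.22) and Ddit3 (-0.11 ± 0.23) did not pass either.

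Genes that carry signals to Cebpb and Cebpd, namely cytokines of the interleukin 6 family, their receptors, JAK, STAT and NF-kappaB factors and the glucocorticoid receptor, were compared between diets after TAC. Of 20 tested, 5 fell and 0 rose on the BCAA-free diet, against 17.7% of all genes lower and 16.5% higher. The median log2 fold change of the list was -0.30. Il6 had 12.1, 74.7 and 10.6 in control diet TAC and 3.01, 0.854 and 1.97 in BCAA-free TAC hearts, the latter from 3, 1 and 2 reads, and its fitted -3.01 ± 0.72 (adjusted p = 0.0135 by limma) depends on the added 1. Stat3, the factor that interleukin 6 activates, went from 6759 ± 637 to 4895 ± 148 and fell by 0.46 ± 0.09 (adjusted p = 0.00538 by limma). The interleukin 1 receptor gene Il1r1 fell by 0.76 ± 0.09 and the glucocorticoid receptor gene Nr3c1 by 0.69 ± 0.08. Il6st, the shared receptor subunit gp130, fell by 0.31 ± 0.09, but had -0.03 with the trends removed and did not pass. With TAC on the control diet 1 of 20 rose, Il1r1 (0.61 ± 0.10, adjusted p = 0.0369 by limma). Stat3 had 0.39 ± 0.11 (adjusted p = 0.0692 by limma) there, and Il6 went from 0.870, 0 and 5.50 to 9.90, 61.4 and 8.74 (adjusted p = 0.0707 by limma), so neither passed. With TAC on the BCAA-free diet the leukaemia inhibitory factor receptor gene Lifr fell by 0.37 ± 0.08 and the NF-kappaB gene Rela rose by 0.32 ± 0.09, of 17 tested. Neither passed with the trends removed, and Rela was not called by edgeR. Stat3 had 0.02 ± 0.08. In sham hearts limma called 0 of 17 between diets, with 3 at an unadjusted p under 0.05, 0 by edgeR and 2 by DESeq2. Lifr (0.48 ± 0.10) and the oncostatin M receptor gene Osmr (0.53 ± 0.13) had the smallest p, and Stat3 had -0.09 ± 0.11.

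Regulators of C/EBP protein include the COP1 adaptors Trib1 and Trib2, kinases, and translation and chromatin factors. Of 17 tested for the diet after TAC 1 rose and 3 fell, against 16.5% of all genes higher and 17.7% lower. The ubiquitin ligase gene Siah2 rose by 0.67 ± 0.12, and the kinase genes Rps6ka3, which encodes RSK2, and Gsk3b fell by 0.59 ± 0.10 and 0.51 ± 0.08. Cited4, the transcriptional coactivator opposed to C/EBP beta in the exercised heart, had 616.5, 596 and 541 in control diet TAC and 383, 416 and 539 in BCAA-free TAC hearts. Cited4 fell by 0.40 ± 0.13 (adjusted p = 0.0422 by limma), while Cebpb was 4.63 times as high. In sham hearts Cited4 had 825, 713 and 559 on the control diet and 299, 274 and 436 on the BCAA-free diet. It fell by 1.07 ± 0.19 (adjusted p = 0.0428 by limma) with Cebpb at 0.00 ± 0.20 in the same comparison, and with the trends removed it had -0.90 and did not pass (adjusted p = 0.0911 by limma). DESeq2 called it there and edgeR did not. For TAC it had -0.58 ± 0.15 on the control diet (adjusted p = 0.0564 by limma) and 0.09 ± 0.18 on the BCAA-free diet (adjusted p = 0.823 by limma). After TAC on the BCAA-free diet Trib1, which leads C/EBP alpha to degradation, rose by 0.65 ± 0.12 (adjusted p = 0.0154 by limma) and Gsk3b fell by 0.35 ± 0.08 (adjusted p = 0.0373 by limma). Neither passed with the trends removed. On the control diet limma called 0 of 17 for TAC, with 5 at an unadjusted p under 0.05, 0 by edgeR and 3 by DESeq2, and Rps6ka1 (0.62 ± 0.18) followed Cited4 in order of p.

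Of 17 tested acute phase and inflammatory targets of C/EBP, 1 rose and 6 fell in BCAA-free TAC against control diet TAC hearts. Among all genes 16.5% were called higher and 17.7% lower. The median log2 fold change of the list was -0.66, opposite in sign to that of Cebpb. The lysozyme gene Lyz2 went from 4498 ± 591 to 2782 ± 178 (fell by 0.69 ± 0.10), the endotoxin coreceptor gene Cd14 from 465 ± 150 to 195 ± 28.8 (fell by 1.21 ± 0.24) and the pentraxin gene Ptx3 from 89.6 ± 36.3 to 36.3 ± 6.24 (fell by 1.22 ± 0.29). Lbp, the lipopolysaccharide binding protein gene, fell by 0.71 ± 0.18. The lipocalin gene Lcn2, a classical target of C/EBP beta, rose by 0.93 ± 0.25 (adjusted p = 0.0202 by limma), from 78.0 ± 18.3 to 151 ± 47.0, but did not pass with the trends removed (0.68). After TAC 2 of 17 rose on the control diet, the haptoglobin gene Hp (1.37 ± 0.22) and the protease inhibitor gene Serpina3n (2.07 ± 0.35). On the BCAA-free diet Serpina3n rose by 0.77 ± 0.17 and the ceruloplasmin gene Cp fell by 0.40 ± 0.07, of 16 tested, and neither passed with the trends removed. In sham hearts Cp alone was called and rose by 0.54 ± 0.10 (adjusted p = 0.0376 by limma).

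Macrophage markers moved with this list. Between diets in TAC hearts 10 of 11 macrophage markers fell, with a median of -0.71, and Lyz2 stands on both lists. Their summed level was taken in CPM, reads scaled to the library's total times its TMM scaling factor. It was 268 to 393 CPM in control diet sham and 366 to 455 in control diet TAC hearts. On the BCAA-free diet it was 211 to 235 in sham and 244 to 288 in TAC hearts. The part of macrophage markers in the inflammatory list was not tested. In bulk tissue fewer cells of a type and less RNA per cell cannot be told apart. Cebpb differed in direction from both lists for the diet after TAC. With TAC on the control diet it did so too, at -0.58 against medians of 0.42 (macrophage) and 0.34 (inflammatory). In the difference between diets in the TAC effect the medians were -0.19 and -0.34, with Cebpb at 2.20. For TAC on the BCAA-free diet 3 of 11 macrophage markers rose and 0 fell (none called with the trends removed), with a median log2 fold change of 0.23, and the inflammatory list had a median of 0.18, the same sign as Cebpb. Of 8 neutrophil markers 4 were tested for the diet after TAC; limma, edgeR and DESeq2 called 0, and 0 had an unadjusted p under 0.05. The 3 neutrophil markers measured in all tables summed to 1.27 to 10.2 CPM over the 12 libraries.

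Of 21 tested amino acid response genes with C/EBP-ATF sites, 6 rose and 2 fell for the diet after TAC, in all near the 34.2% of all genes called in either direction, with a median of -0.03. Herpud1, of protein degradation at the endoplasmic reticulum, rose by 1.17 ± 0.15, the stanniocalcin gene Stc2 by 0.56 ± 0.12, the cystathionine gamma-lyase gene Cth by 1.48 ± 0.36 and the alanine aminotransferase gene Gpt2 by 0.65 ± 0.16. Asns, asparagine synthetase and the best known target of such an element, had 99.6, 101 and 82.5 on the control diet and 36.1, 59.7 and 68.1 on the BCAA-free diet and fell by 0.82 ± 0.25 (adjusted p = 0.0332 by limma). Shmt2, a mitochondrial serine enzyme gene, rose by 0.25 ± 0.08 and did not pass with the trends removed, and Trib3, an inhibitor of ATF4, had 0.12 ± 0.20 (adjusted p = 0.666 by limma). In sham hearts the diet lowered 1 of 21, the mitochondrial folate gene Aldh1l2 (-1.23 ± 0.19, adjusted p = 0.0212 by limma), and Asns (-0.55 ± 0.26) and Trib3 (0.85 ± 0.28) did not pass. Nupr1, a gene of a stress-response cofactor, rose by 1.58 ± 0.33 and Aldh1l2 fell by 1.22 ± 0.25 after TAC on the control diet, while Trib3 (0.75 ± 0.28) and Asns (0.28 ± 0.25) did not pass. After TAC on the BCAA-free diet 1 of 21 was called, the lipoprotein receptor gene Vldlr, which fell by 0.32 ± 0.08 and did not pass with the trends removed. Asns and Trib3 both had 0.02 there.

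Of 17 tested adipogenic and lipid storage targets of C/EBP, 8 rose and 0 fell between diets after TAC. Among all genes 16.5% were called higher and 17.7% lower. The median log2 fold change of the list was 0.72, against 0.00 over all genes. The adipogenic regulator gene Pparg had -0.02 ± 0.11 and the fatty acid desaturase gene Scd1 -0.44 ± 0.86, and neither passed. The lipase genes Pnpla2 and Lipe rose by 0.75 ± 0.09 and 0.78 ± 0.10, the insulin-regulated glucose transporter gene Slc2a4 by 0.72 ± 0.13 and the triglyceride synthesis gene Dgat2 by 1.05 ± 0.20. Klf15, a glucocorticoid-induced regulator of metabolism, rose by 0.94 ± 0.21 and Srebf1, of lipid synthesis, by 0.44 ± 0.12. Markers of fat cells, most of which stand on this list too, had a median log2 fold change of 1.38, and 1 of 7 tested, Retn (1.78 ± 0.51), rose and 0 fell. Their summed level, held mostly by Fabp4, was 445 to 463 CPM in control diet TAC and 442 to 478 CPM in BCAA-free TAC hearts. Without Fabp4 the sum was 5.22 to 29.7 CPM and 13.7 to 45.8 CPM, and the groups overlapped. The middle libraries had 11.1 and 42.8 CPM. Of 8 cardiomyocyte markers 6 rose, with a median log2 fold change of 0.56. Their summed level was 59315 to 73144 CPM in control diet TAC and 90811 to 94670 CPM in BCAA-free TAC hearts. The part of fat cells or cardiomyocytes in the list was not tested. With TAC on the BCAA-free diet Dgat2 rose by 0.29 ± 0.07 while the lipoprotein lipase gene Lpl and the fatty acid transporter gene Cd36 fell by 0.42 ± 0.07 and 0.32 ± 0.07. None of the 3 passed with the trends removed, and Dgat2 was not called by edgeR. On the control diet limma called 0 of 17 for TAC, with 5 at an unadjusted p under 0.05, 0 by edgeR and 2 by DESeq2, led by Slc2a4 (-0.57 ± 0.15) and Pnpla2 (-0.42 ± 0.13). In sham hearts limma called 1 of 17 between diets, Lipe (0.58 ± 0.11, adjusted p = 0.0488), which DESeq2 also called and edgeR did not.

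The list around C/EBP beta and CITED4 in heart growth holds Cited4 and 12 other genes, among them cardiac transcription factors. Of its 13 genes 6 rose and 2 fell for the diet after TAC, against 16.5% of all genes higher and 17.7% lower. The median of the list was -0.04. The GATA factor gene Gata6 rose by 0.64 ± 0.10, the T-box factor gene Tbx5 by 1.04 ± 0.19, the coactivator gene Cited2 by 1.08 ± 0.22 and the alpha-myosin heavy chain gene Myh6, which is also a cardiomyocyte marker, by 0.59 ± 0.14. The homeobox factor gene Nkx2-5 rose by 0.40 ± 0.12 and Mef2c fell by 0.32 ± 0.10, and neither passed with the trends removed. With TAC on the control diet 1 of 13 rose, the growth factor receptor gene Igf1r (0.68 ± 0.15). After TAC on the BCAA-free diet the kinase gene Akt1 rose by 0.40 ± 0.08 and the cofactor gene Myocd fell by 0.52 ± 0.11, and neither passed with the trends removed. In sham hearts the diet raised Igf1r by 0.69 ± 0.13 (adjusted p = 0.0422 by limma) and lowered Cited4. DESeq2 called both of them and edgeR neither.

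Nucleolar ribosome assembly factors are the setting of Cebpz. For the diet after TAC 5 of 22 rose and 2 fell, in all near the 34.2% of all genes called in either direction, with a median of 0.01 beside 0.02 for Cebpz. Rrs1, of large subunit assembly, rose by 0.58 ± 0.09 and Rrp12, of ribosome export, fell by 0.68 ± 0.11. The Noc family genes Noc4l and Noc2l rose by 0.33 ± 0.09 and 0.24 ± 0.07 and Noc3l fell by 0.46 ± 0.11, while Rrp1 rose by 0.25 ± 0.07. Of the 7 called genes 3 were called with the trends removed, and the 3 Noc genes and Rrp1 were not among them. Rrp12 rose by 0.59 ± 0.12 after TAC on the control diet. Limma called 0 of 22 for TAC on the BCAA-free diet, with 6 at an unadjusted p under 0.05 and 0 by edgeR and DESeq2, and in sham hearts it called 0 of 22, with 4 at an unadjusted p under 0.05 and 0 by both other tools.

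**Figure D5:**
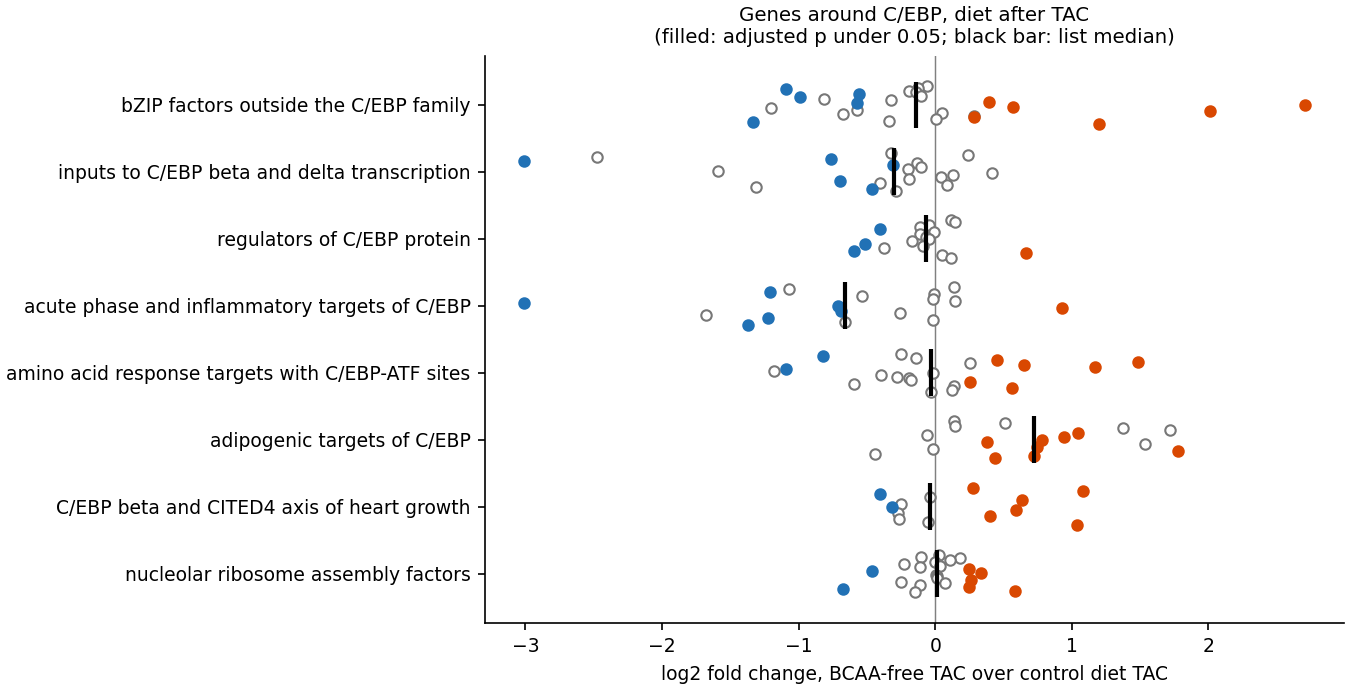
Log2 fold change of each tested gene of the 8 lists (rows) between BCAA-free TAC and control diet TAC hearts, with filled points for genes at an adjusted p under 0.05 (orange higher, blue lower), open points for the rest and black bars for list medians. The medians are 0.72 for adipogenic and -0.66 for acute phase and inflammatory targets of C/EBP.

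Other marker lists gave the setting of these values. The hearts expressed all 8 cardiomyocyte markers in all tables. For the diet after TAC 6 of 8 fibroblast markers fell and 0 rose, and their summed level was 2667 to 3921 CPM in control diet TAC and 1926 to 2230 CPM in BCAA-free TAC hearts. Of 7 endothelial markers 1 rose and 3 fell, and of 5 smooth muscle markers 2 rose and 0 fell. Among all genes 16.5% were called higher and 17.7% lower in that comparison. Of 5 atrial cardiomyocyte markers 2 rose, with a median log2 fold change of 1.17. Their summed level, held mostly by Nppa, was 942 to 3058 CPM in control diet TAC and 727 to 1740.2 CPM in BCAA-free TAC hearts. Of 3 tested lymphocyte markers limma, edgeR and DESeq2 called 0, with 0 at an unadjusted p under 0.05. For TAC on the BCAA-free diet the 5 atrial markers had log2 fold changes of 0.91 to 7.01, with a median of 1.26. Limma called 0 of them, edgeR 2 and DESeq2 1, with 3 at an unadjusted p under 0.05. The part of these cell types in the Cebpb difference was not tested.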

How the data were processed

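PolyA RNA-seq of 12 mouse heart samples, in 4 groups of 3, was read from 4 deposited tables, each of 1 comparison of 2 groups and 15438 to 15936 genes. The submitters' processing notes name Trimmomatic 0.36, STAR 2.5.2b, Subread 1.5.2, DESeq2, GRCm38 and mm10, with no role for each. The expression values that the authors deposited are a signal of normalized read counts, that is reads divided by a library size factor, judged from the values. Each table also holds the authors' log2 fold changes, given here for Cebpb only. The p-values that the authors deposited were not used.

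Dividing the values of a library by what 1 read is worth gave whole reads (within 0.01), the same in both tables of the library for 12 of 12 libraries, with totals of 13848953 to 52065900 reads. Intervals were not needed for single libraries, and counting errors cover sampling of reads only.

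Differences were tested on log2(value + 1) in R 4.3.3 with limma 3.58.1 (empirical Bayes with a trend and robust fit, statmod 1.5.0), within the 6 libraries of a table, after genes whose mean value was under 10 had been dropped. Fold changes on that scale understate changes of low genes. P-values were adjusted over all genes tested by the Benjamini-Hochberg method, with 0.05 as the threshold. The interaction (the TAC effect on the BCAA-free diet minus that on the control diet) was fitted on all 12 libraries over 15195 genes. An exact permutation test of 3 against 3 samples cannot go below p = 0.1 and was not used. The fits were checked on simulated data.

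Alternatives were a rescaling by TMM, library totals alone, no filter or a mean of at least 100, an added value of 10, a replicate block, edgeR 4.0.16 and DESeq2 1.42.0 on recovered reads, a correction of every library for its dependence on GC content and on transcript length (splines with 5 degrees of freedom; "trends removed" in the text), all 12 libraries in one fit, and leaving out each library. Gene models came from GENCODE M21 on GRCm38. Promoters came from RefSeq (GRCm38.p6), where Cebpa, Cebpb and Cebpg matched, and Cebpd and Cebpz are named only.

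The members and lists were chosen with earlier results of these data known, and they support nothing about their own direction. Genes were named by rule: all members, per list the called genes, up to 6 in order of p, or the leading 2 of a list without calls, Cited4, Ddit3, Atf3, Atf4, Atf5, Il6, Stat3, Nfil3, Asns and Trib3, the 6 genes with the highest Pearson r with Cebpb (log2 CPM scaled by TMM), and its nearest gene on each side. Fos in control diet sham hearts was named after its values were seen. Listed genes in none of the tables, such as Tnf, Osm and Lep, were not analysed here.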

Additional observations from a re-analysis of the deposited data

Results flagged for a closer look

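The TAC effect on the BCAA-free diet minus that on the control diet was 2.20 on the log2 scale for Cebpb. All control diet TAC libraries lay below all of their sham libraries and all BCAA-free TAC libraries above theirs. The gene was chosen for its rise on the BCAA-free diet only, so the difference was not tested.

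Of 145 distinct genes tested on the related lists, 12 (8.28%, against 8.65% of all genes tested) had a difference between diets in the TAC effect that passed limma's interaction test over all genes, where 4.92% of genes were called higher and 3.73% lower. The difference was positive for Dgat2 (0.87, adjusted p = 0.0345), Herpud1 (0.83, adjusted p = 0.0454), Slc2a4 (0.68, adjusted p = 0.0295), Rrs1 (0.67, adjusted p = 0.0229), Pnpla2 (0.53, adjusted p = 0.0412), Akt1 (0.51, adjusted p = 0.0303) and Shmt2 (0.46, adjusted p = 0.0314). It was negative for Igf1r (-0.94, adjusted p = 0.0167), Osmr (-0.93, adjusted p = 0.0321), Il1r1 (-0.89, adjusted p = 0.00711), Rps6ka3 (-0.66, adjusted p = 0.0261) and Cp (-0.55, adjusted p = 0.0165). With each library's GC and length trends removed, limma called 0 of the 12, with 12 at an unadjusted p under 0.05, while edgeR and DESeq2 on recovered reads, with the trends kept, each called 12. Groups of 3 samples are too small for a check for single outlying libraries.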

How the results depend on the processing

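The number of genes called moved with the processing. For TAC on the control diet limma called 622, and 1415 with library totals alone, 2203 by DESeq2 and 2988 with all 12 libraries in the fit. Leaving out 1 library gave 0 (without control diet TAC replicate 3, by limma, with 3370 genes at an unadjusted p under 0.05, and no other tool run) to 1091. For TAC on the BCAA-free diet it was 977, with 1490 by DESeq2, 76 with GC and length trends removed, 59 with all 12 libraries, and 48 (without BCAA-free TAC replicate 3) to 1184 without 1 library. For the diet after sham it was 95, with 52 at a mean of at least 100, 531 by DESeq2, 420 with the trends removed, 366 with all 12 libraries, and 6 (without BCAA-free sham replicate 2) to 475 without 1 library. For the diet after TAC it was 5435, and 3369 to 5269 without 1 library. For the interaction it was 1314, with 2229 by DESeq2, 309 with the trends removed, and 216 (without BCAA-free TAC replicate 3) to 1733 without 1 library. Library totals alone shifted the median log2 fold change of all genes by 0.15 for TAC on the control diet, -0.13 for the diet after TAC and -0.20 for the interaction. The calls were then 1268 higher and 147 lower, 1461 and 3798, and 385 and 1456, where the deposited scaling gave 454 and 168, 2618 and 2817, and 747 and 567. In the diet comparison after sham they were 52 higher and 45 lower, against 38 and 57. With the trends removed TAC on the BCAA-free diet had 69 higher and 7 lower, against 524 and 453, TAC on the control diet 514 and 345, and the interaction 220 and 89.

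Cebpb kept its sign in every setting for TAC on each diet, the diet after TAC and the interaction. With the trends removed it was 1.23 for TAC on the BCAA-free diet, 1.84 for the diet after TAC and 1.70 for the interaction. Leaving out 1 library moved it from 1.52 to 1.73, 2.10 to 2.31 and 1.92 to 2.38, and from -0.76 to -0.30 for TAC on the control diet. Between diets after sham, where it was 0.00, it ran from -0.17 to 0.27. Small values of other members changed sign. For the diet after sham Cebpa was 0.03, and without 1 library it ran from -0.060 to 0.17 (-0.044 without control diet sham replicate 1, -0.017 without BCAA-free sham replicate 1), and Cebpd from -0.32 to 0.089 (without control diet sham replicate 3). In the diet comparison after TAC the trends removed gave -0.018 for Cebpa and 0.083 for Cebpg, library totals alone gave -0.11 for Cebpz, and without 1 library Cebpz ran from -0.012 to 0.058, with -0.0044 and -0.0036 without control diet TAC replicates 1 and 2. The cause of these changes was not tested.

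Of the list genes called, the trends removed left 7 of 7 called for TAC on the control diet, 2 of 16 for TAC on the BCAA-free diet, 4 of 5 for the diet after sham, 42 of 56 for the diet after TAC and 0 of 12 for the interaction. EdgeR left 14 of 16 called for TAC on the BCAA-free diet (not Rela and Dgat2), 2 of 5 for the diet after sham (not Cited4, Lipe and Igf1r) and 55 of 56 for the diet after TAC (not Lpl). Library totals alone left 43 of 56 for the diet after TAC, and all 12 libraries 1 of 16 for TAC on the BCAA-free diet. Without 1 library 0 to 7 of 7, 2 to 13 of 16, 0 to 5 of 5, 31 to 46 of 56 and 3 to 12 of 12 were called, and no called gene changed sign.

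Replicate numbers were shared across groups, but the labels do not say that a number marks a shared day or litter. Deviations of same-numbered samples correlated at -0.256 to 0.152, and samples did not all correlate best with their own number. A replicate block gave 822, 1321, 143, 4640 and 1584 calls in the 5 comparisons as ordered above, left 42 of 56 list genes called for the diet after TAC, and left Cebpb at -0.58, 1.62, 0.00, 2.20 and 2.20.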
